A study of Mus musculus with 35 samples.

Results

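Perlecan (Hspg2), laminin gamma1 (Lamc1) and nidogen 1 (Nid1) rose in non-dissected suprarenal aortas of ApoE-/- mice after 7 days of angiotensin II, against saline. In aortas that had dissected by that day, only Hspg2 of these was called higher than in saline aortas, and laminin alpha2 (Lama2) and Nid1 were lower than in aortas that had not dissected. The genes described here are the laminin chains Lama2, Lama4, Lama5, Lamb1, Lamb2 and Lamc1, the nidogens Nid1 and Nid2, and perlecan. These 9 genes were chosen by name, as laminin, nidogen and perlecan transcripts of the vessel wall, with earlier results of these data known. All 9 were measured, by 14 of the 41174 probes of the array, and all 9 passed the filter on dim probes among 18671 genes tested.

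The data are 35 two-colour Agilent arrays, each of 1 suprarenal aorta. All mice were male and lacked ApoE, and were 12 to 14 weeks old when an osmotic minipump was implanted. Dissected aortas came from 3 mice given angiotensin II (Ang II) at 1000 ng/kg/min for 7 days. At the same dose, Ang II aortas labelled as aneurysms without dissection came from 4 mice at 7 days, and aortas labelled as aneurysms, with no word on dissection, from 5 mice at 14 days and 6 at 28 days. Saline aortas came from 6, 6 and 5 mice at these times. Aorta RNA was linearly amplified and carried Cy5, and it was hybridised with a universal mouse reference RNA that carried Cy3, with no dye swap. A level below is therefore the log2 ratio of aorta to that reference RNA, and it can be compared between groups for 1 gene but not between genes. A change is the difference of 2 group means on that log2 scale, given with its standard error (SE). Called means an adjusted p under 0.05 by limma over all genes tested.

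Laminins are secreted heterotrimers of an alpha, a beta and a gamma chain that assemble into a sheet on the cell surface, and the alpha chain carries the main binding sites for integrins and dystroglycan. Nidogens bind the laminin gamma1 chain and link the laminin sheet to the type IV collagen network. Perlecan, a large heparan sulfate proteoglycan, binds both networks and holds growth factors through its heparan sulfate chains. In an artery such basement membranes lie under the endothelium and around each smooth muscle cell.

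Probe sequences are shown for the laminin chains read by more than one probe. A pair of probes is shown for each of Lama2 and Lama4, and the capitals mark the 29 bases that the 2 Lama4 probes share, so these are not independent readings. Positions are on mouse build mm8, as the array files give them, and the sequence is that of the probe.
Lama2 A_51_P191865, chr10:26673839-26673898, minus strand: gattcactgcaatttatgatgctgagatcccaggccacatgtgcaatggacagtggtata
Lama2 A_52_P652859, chr10:26680324-26682334, minus strand: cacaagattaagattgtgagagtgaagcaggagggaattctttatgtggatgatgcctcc
Lama4 A_51_P212420, chr10:38795404-38795463, plus strand: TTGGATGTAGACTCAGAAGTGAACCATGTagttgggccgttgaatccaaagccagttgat
Lama4 A_52_P7554, chr10:38794642-38795432, plus strand: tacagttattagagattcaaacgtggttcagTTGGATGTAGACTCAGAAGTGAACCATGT
Each probe has 60 bases, and a longer span is given where its match in the genome is interrupted. The first Lama2 and the first Lama4 probe are the brightest of their genes and stand for them below. The remaining Lama2 probe, A_52_P459341, was above background on 1 array, and the dim Lama4 probe A_52_P78714 on 17 of 35 arrays. A further Lama4 probe is not reported here.

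Promoters are shown for the 3 members whose call separates a group at 7 days and for which RefSeq promoter windows on GRCm38.p6 were at hand. Of the 9 members 6 matched that table. A window runs from 250 bases before to 50 after the gene's start, written 5′ to 3′ on the strand of the gene, with each GGGCGG (the GC box, searched on both strands) in capitals.
Hspg2, chr4:137468553-137468852, plus strand: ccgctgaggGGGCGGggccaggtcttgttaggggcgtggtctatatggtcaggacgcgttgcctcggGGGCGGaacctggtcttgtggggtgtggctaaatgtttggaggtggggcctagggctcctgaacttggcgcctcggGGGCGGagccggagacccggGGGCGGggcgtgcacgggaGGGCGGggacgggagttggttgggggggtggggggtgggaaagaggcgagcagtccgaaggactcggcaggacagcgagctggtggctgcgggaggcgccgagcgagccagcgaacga
Nid1, chr13:13437352-13437651, plus strand: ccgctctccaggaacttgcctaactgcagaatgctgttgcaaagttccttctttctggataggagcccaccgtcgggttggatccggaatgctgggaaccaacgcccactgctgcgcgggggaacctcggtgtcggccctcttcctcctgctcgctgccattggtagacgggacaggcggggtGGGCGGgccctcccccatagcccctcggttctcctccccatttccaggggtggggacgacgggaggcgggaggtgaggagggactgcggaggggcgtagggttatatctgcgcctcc
Lama2, chr10:27616893-27617192, minus strand: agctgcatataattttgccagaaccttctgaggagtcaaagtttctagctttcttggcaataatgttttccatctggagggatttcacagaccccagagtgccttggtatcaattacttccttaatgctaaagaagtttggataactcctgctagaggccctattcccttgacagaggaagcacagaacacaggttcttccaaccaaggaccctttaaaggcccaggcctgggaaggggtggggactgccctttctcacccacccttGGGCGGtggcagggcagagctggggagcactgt
The Hspg2 window held 5 GC boxes at a G+C content of 70.3%, and the windows of Nid1 and Lama2 held 1 each at 64.7% and 50.3%. Over 32851 such windows 35.7% hold at least 1 of these boxes. The SMAD element CAGAC was found once in the Lama2 window and in neither of the other windows shown, and 49.6% of all windows hold one. These matches describe the letters of the windows and say nothing of what binds there.

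On each array 45% to 84.8% of spots (median 57.1%) exceeded background clearly in Cy5, and array 4 of Ang II at 14 days, at the upper end, stood apart. The 9 probes that stand for the members were well above background in Cy5 on all 35 arrays and saturated on none. Arrays were scanned on 2 days: all 3 dissected aortas on day 2, 3 of the 4 non-dissected Ang II aortas at 7 days on day 1, and every other group on both days. Between dissected and non-dissected Ang II aortas, dissection and scan day can therefore be separated only through 1 array.

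Perlecan was the member with the largest rise under Ang II at 7 days. Hspg2 was at 3.02, 3.42 and 2.39 in the dissected aortas and at 2.89, 2.69, 2.59 and 2.55 in the non-dissected Ang II aortas, against a lowest of -0.03, a median of 0.87 and a highest of 2.12 in saline aortas. All 7 Ang II aortas of that day lay above every saline aorta, as was so for 18% of all genes in dissected and 12.7% in non-dissected against saline aortas. The change in non-dissected Ang II aortas was 1.69 (SE 0.35, adjusted p = 0.000826), a 3.22-fold higher ratio with a 95% interval of 0.97 to 2.41 on the log2 scale. In dissected aortas the change against saline was 1.94 (SE 0.39, adjusted p = 0.000196), or 3.85-fold. The dissected and non-dissected Ang II aortas overlapped, and their difference of 0.26 (SE 0.42, adjusted p = 0.796) had an interval from -0.59 to 1.11. Both comparisons with saline use the same 6 saline aortas. Of these, the 3 scanned on day 1 were at 1.60, 1.05 and 2.12, and the 3 scanned on day 2 at 0.55, -0.03 and 0.69. Hspg2 was read by a probe that the array file describes as mouse perlecan mRNA.

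At 14 days Hspg2 was at 1.27, 1.75, 2.18, 2.24 and 1.05 in Ang II aortas, against 0.71, 1.04 and 1.98 as the lowest, median and highest of the saline aortas, and the groups overlapped. At 28 days the lowest, median and highest were 0.28, 1.34 and 1.77 in Ang II aortas, against 1.41, 0.36, 1.35, 1.01 and 1.95 in the 5 saline aortas. The changes were 0.47 (SE 0.33, adjusted p = 0.479) at 14 days and 0.04 (SE 0.33, adjusted p = 0.974) at 28 days. Dissected aortas had the highest group mean, 2.94 ± 0.52 (SD, n = 3), then non-dissected Ang II at 7 days, 2.68 ± 0.15 (n = 4), and saline at 7 days had the lowest, 1.00 ± 0.77 (n = 6). The step from the 7-day to the 14-day Ang II aortas was the only place in the order of group means of any member where neighbouring groups did not overlap.

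Lama2 encodes the alpha2 chain, the laminin alpha chain of muscle, whose loss causes a congenital muscular dystrophy. It was at 0.49, 0.41 and 0.04 in dissected aortas and at 2.67, 2.50, 2.02 and 1.96 in non-dissected Ang II aortas, against a lowest of 1.16, a median of 1.58 and a highest of 2.16 in saline aortas. Every dissected aorta lay below every other aorta of that day (18.9% of all genes lay so against saline and 15.1% against non-dissected Ang II aortas), and 2 of the 4 non-dissected Ang II aortas lay above all saline aortas. The dissected aortas were lower than the non-dissected ones by a 3.92-fold ratio (change -1.97, SE 0.45, adjusted p = 0.00709) and lower than saline aortas by 2.51-fold (change -1.33, SE 0.42, adjusted p = 0.0127). Non-dissected Ang II aortas differed from saline by 0.64 (SE 0.38, adjusted p = 0.212). The amount of a transcript in an aorta can be lower because cells of a type are fewer or because each holds less of it, and in these bulk samples the 2 cannot be told apart.

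The further Lama2 probe, A_52_P652859, shares no base with the first and gave changes of -1.71 (adjusted p = 0.0144) in dissected against non-dissected Ang II aortas and -1.27 (adjusted p = 0.0132) in dissected against saline aortas. It was not well above background on any dissected array, so its fold is a bound. That bound came from the aorta signal alone, not from the log2 ratio. For the dissected arrays the bound used the probe's own signal or the lowest signal well above background there, whichever was higher. On that basis Lama2 was at least 2.98-fold lower in dissected than in non-dissected Ang II aortas and at least 2.1-fold lower than in saline aortas. Without dissected aorta 3 the first probe's change against saline was -1.19 (adjusted p = 0.0636), and with the slide as a block it was -1.28 (adjusted p = 0.123). Against non-dissected Ang II aortas the change was -1.84 with the slide as a block (adjusted p = 0.159) and -1.71 within scan day 2 (adjusted p = 0.135).

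Lama4 encodes the alpha4 chain of endothelial and smooth muscle basement membranes. By its brightest probe it was at 5.17, 4.61 and 4.87 in dissected aortas and at 4.47, 5.28, 4.54 and 5.13 in non-dissected Ang II aortas, against 4.81, 4.90 and 5.16 as the lowest, median and highest of the saline aortas. The groups overlapped, and changes at 7 days were -0.08 (SE 0.18, adjusted p = 0.782) for Ang II and -0.05 (SE 0.20, adjusted p = 0.871) for dissected against saline. The probe that shares 29 bases with it gave 0.00 and -0.14. The reference signal in Cy3 was dim for this pair, with medians of 125 for the brightest probe and 102 for the other. It was above background on 34 and 26 of 35 arrays. How far this dim reference limits the ratios was not tested. These overlapping probes read 1 stretch of the transcript. The dim probe A_52_P78714 gave -0.41 (SE 0.16, adjusted p = 0.0477 by limma over 27825 probes) for dissected against saline aortas. It was well above background on 0 of 3 dissected and 4 of 6 saline arrays, and its reference signal on no array. Some saline signals were thus themselves near background, so no least fold is given. Whether Lama4 was called in dissected against saline aortas therefore depends on the probe read. The dim probe's call alone does not show a loss in dissected aortas. The overlapping pair does not show that Lama4 was unchanged there, and why its probes gave different calls was not tested.

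Lama5 encodes the alpha5 chain, which is widely made and lies under endothelium and epithelium. It was at 0.08, 0.60 and -0.20 in dissected aortas and at 1.26, 0.60, 0.83 and 0.58 in non-dissected Ang II aortas, against a lowest of -0.82, a median of 0.06 and a highest of 1.27 in saline aortas. The saline aortas spanned the values of both Ang II groups. The change was 0.72 (SE 0.38, adjusted p = 0.15) in non-dissected Ang II and 0.06 (SE 0.41, adjusted p = 0.925) in dissected aortas.

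Lamc1 encodes gamma1, the chain shared by most laminins and the one that nidogens bind. It was at -0.16, 0.17 and -0.11 in dissected aortas and at 0.77, 0.91, 0.55 and 0.35 in non-dissected Ang II aortas, against a lowest of -0.42, a median of -0.21 and a highest of 0.39 in saline aortas. Of the 4 non-dissected Ang II aortas 3 lay above every saline aorta, and the 3 dissected aortas lay below all 4 of them. The rise in non-dissected Ang II aortas was 0.77 (SE 0.22, adjusted p = 0.0113), a 1.70-fold higher ratio. Without Ang II aorta 2 it was 0.68 (adjusted p = 0.052). In dissected aortas the change was 0.09 (SE 0.25, adjusted p = 0.809) against saline and -0.68 (SE 0.26, adjusted p = 0.115) against non-dissected Ang II aortas.

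Lamb2, which encodes the beta2 chain found at synapses, glomeruli and vessel walls, was at 0.65, 0.70 and 0.12 in dissected aortas and at 1.78, 1.96, 1.47 and 1.89 in non-dissected Ang II aortas, against a lowest of 0.22, a median of 0.81 and a highest of 2.15 in saline aortas. The saline aortas fell into 3 high values (2.05, 1.19 and 2.15) and 3 low values (0.44, 0.22 and 0.41), the high ones all scanned on day 1 and the low ones on day 2. At 7 days the saline aortas of scan day 1 also all lay above those of scan day 2 for Hspg2, Lama5 and Lamc1. For Lamb1 they all lay below. For Lamb2 the dissected aortas lay below all non-dissected Ang II aortas, but the change of -1.29 (SE 0.48, adjusted p = 0.1) did not pass. Nor did 0.70 (SE 0.41, adjusted p = 0.199) for non-dissected Ang II against saline. Lamb1, the beta1 chain of many laminins, had changes of 0.27 in dissected aortas against saline, 0.18 in dissected against non-dissected Ang II aortas, and 0.09 in non-dissected Ang II aortas against saline, with SEs of 0.36, 0.39 and 0.33. Its group means over all 7 groups ran from 0.10 ± 0.24 (SD, n = 5) in Ang II aortas at 14 days to 0.54 ± 0.38 (n = 3) in dissected aortas.

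Nid1, a linker of laminin and collagen IV, was at -0.26, -0.70 and -0.50 in dissected aortas and at 1.10, 0.93, 0.68 and 0.59 in non-dissected Ang II aortas, against a lowest of -0.36, a median of 0.06 and a highest of 0.40 in saline aortas. All 4 non-dissected Ang II aortas lay above every saline aorta, as was so for 12.7% of all genes. All 3 dissected aortas lay below every non-dissected Ang II aorta, as was so for 15.1% of all genes. The rise in non-dissected Ang II aortas was 0.78 (SE 0.26, adjusted p = 0.0249), 1.72-fold, and the dissected aortas were 2.48-fold lower than the non-dissected ones (change -1.31, SE 0.31, adjusted p = 0.00826). Against saline the dissected aortas differed by -0.53 (SE 0.29, adjusted p = 0.146), with 2 of 3 below every saline aorta.

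These Nid1 calls rested on few arrays. Its rise was 0.69 (adjusted p = 0.0878) without Ang II aorta 1, 0.74 (adjusted p = 0.0694) without Ang II aorta 2, 0.72 (adjusted p = 0.055) without saline aorta 4 and 0.70 (adjusted p = 0.0598) without saline aorta 5. With the slide as a block the rise was 0.72 (adjusted p = 0.101), and the difference of dissected from non-dissected aortas was -1.30 (adjusted p = 0.107). That difference was -1.20 (adjusted p = 0.0525) without dissected aorta 2 and -1.16 (adjusted p = 0.0829) within scan day 2. Nid2, its homologue, was at -1.65, -1.52 and -1.83 in dissected aortas and at -0.48, -0.78, -1.19 and -1.16 in non-dissected Ang II aortas, against a lowest of -1.71, a median of -1.25 and a highest of -0.58 in saline aortas. The dissected aortas lay below all 4 non-dissected ones, with a change of -0.77 (SE 0.34, adjusted p = 0.171).

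**Figure D1:**
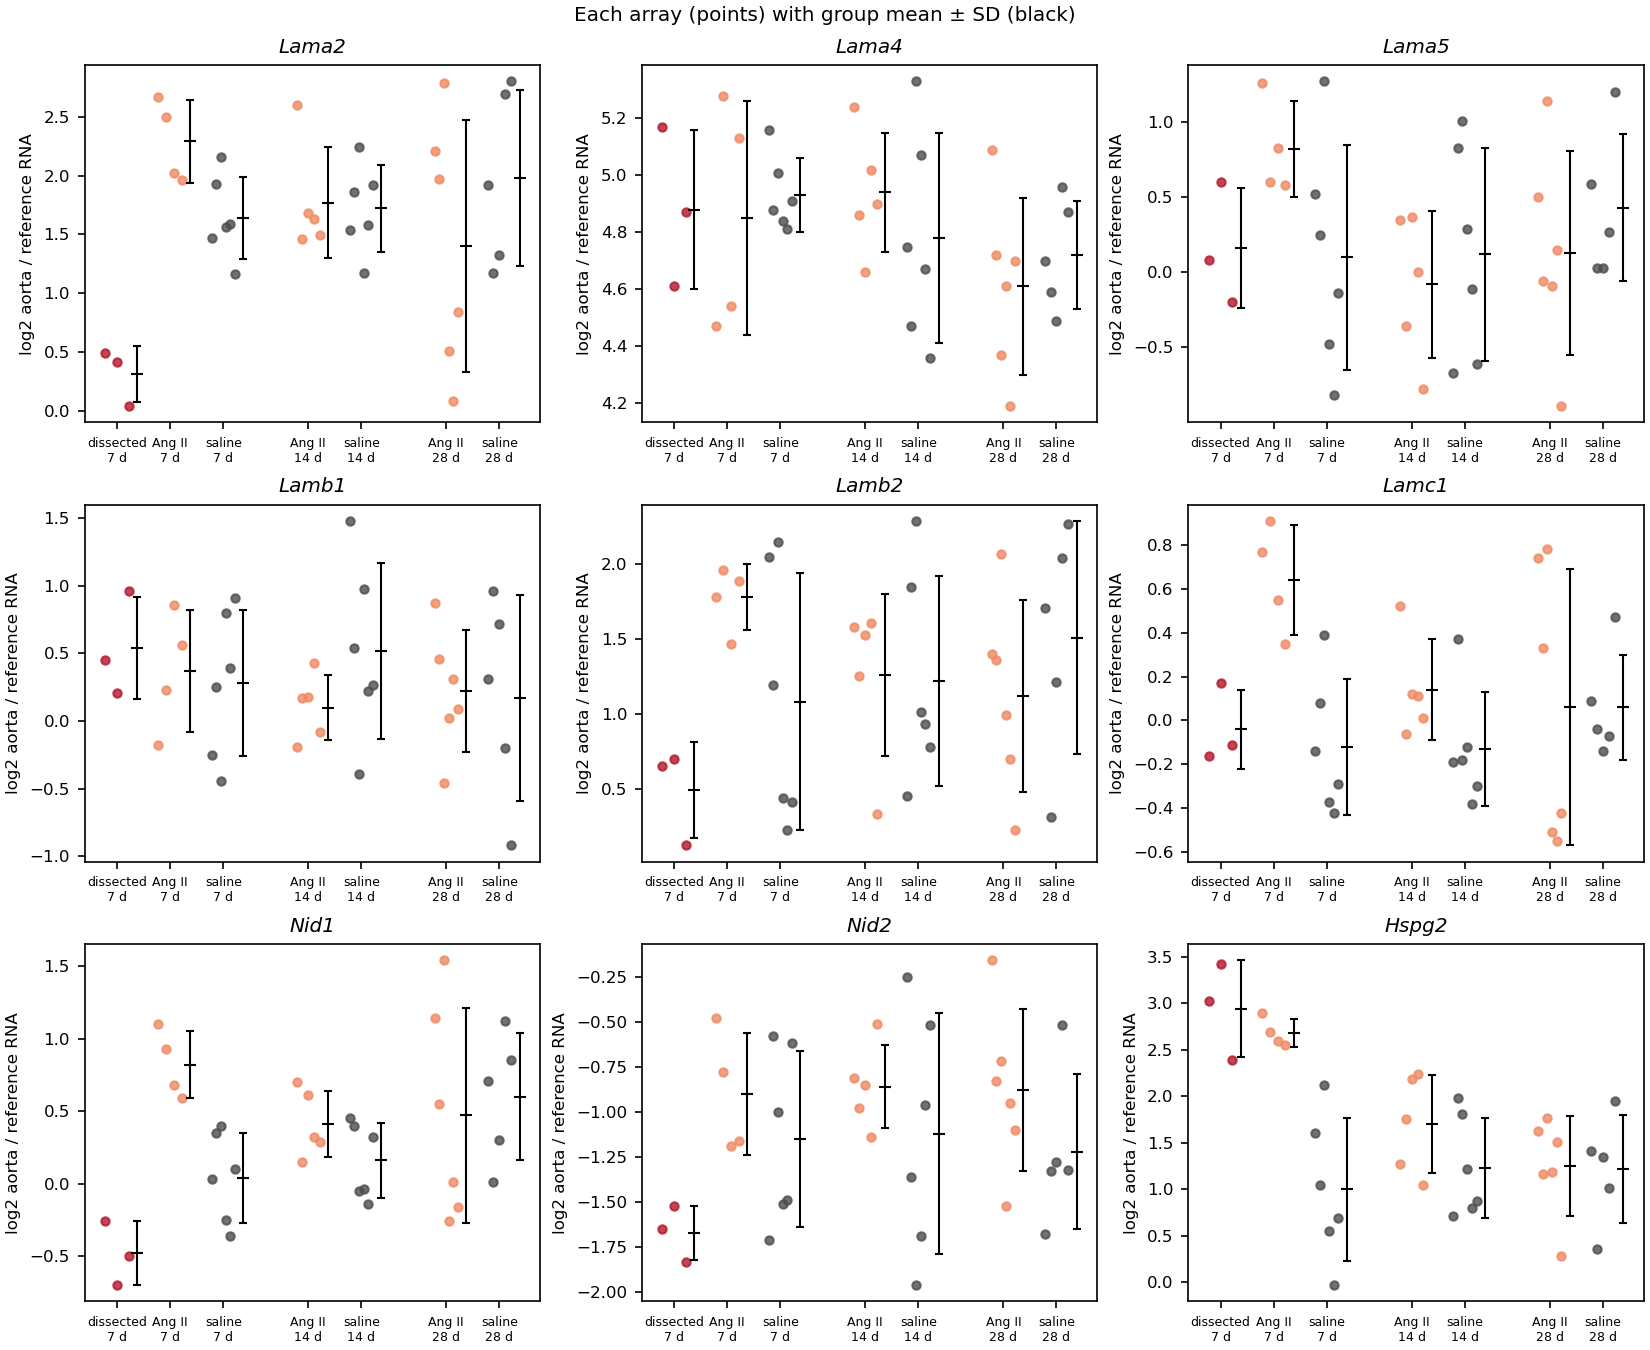
Log2 ratio of aorta to reference RNA (vertical axes, one panel per gene, each with its own scale) for every array, with dissected aortas, Ang II aortas and saline aortas at each day; points are aortas and black bars the group mean with SD. Hspg2 stands above saline in both Ang II groups at 7 days, while Lama2, Lamb2, Nid1 and Nid2 have their lowest group mean in the 3 dissected aortas. For Lama2, Lamb2, Lamc1, Nid1 and Nid2 the Ang II aortas at 28 days split by scan day, which is not marked.

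Across the 9 genes 3 were called in non-dissected Ang II against saline at 7 days, all higher, where 28.7% of all genes tested were called, 14.8% higher and 13.9% lower. Their median change was 0.70, against -0.01 over all genes, and 8 of 9 were above 0. In dissected against saline aortas 1 was called higher and 1 lower, where 38% of all genes were called, 19.1% higher and 19% lower, and the median was -0.05 for members and -0.05 for all genes. In dissected against non-dissected Ang II aortas 2 were called, both lower, where 7.54% of all genes were called, 2.79% higher and 4.76% lower. There the members' median was -0.68, against 0.00 over all genes, and 6 of 9 were below 0. In that comparison 5 members (Lama2, Lamb2, Lamc1, Nid1 and Nid2) had every dissected aorta below every non-dissected one, as did 15.1% of all genes. These comparisons share aortas, so their counts are not independent of each other.

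**Figure D2:**
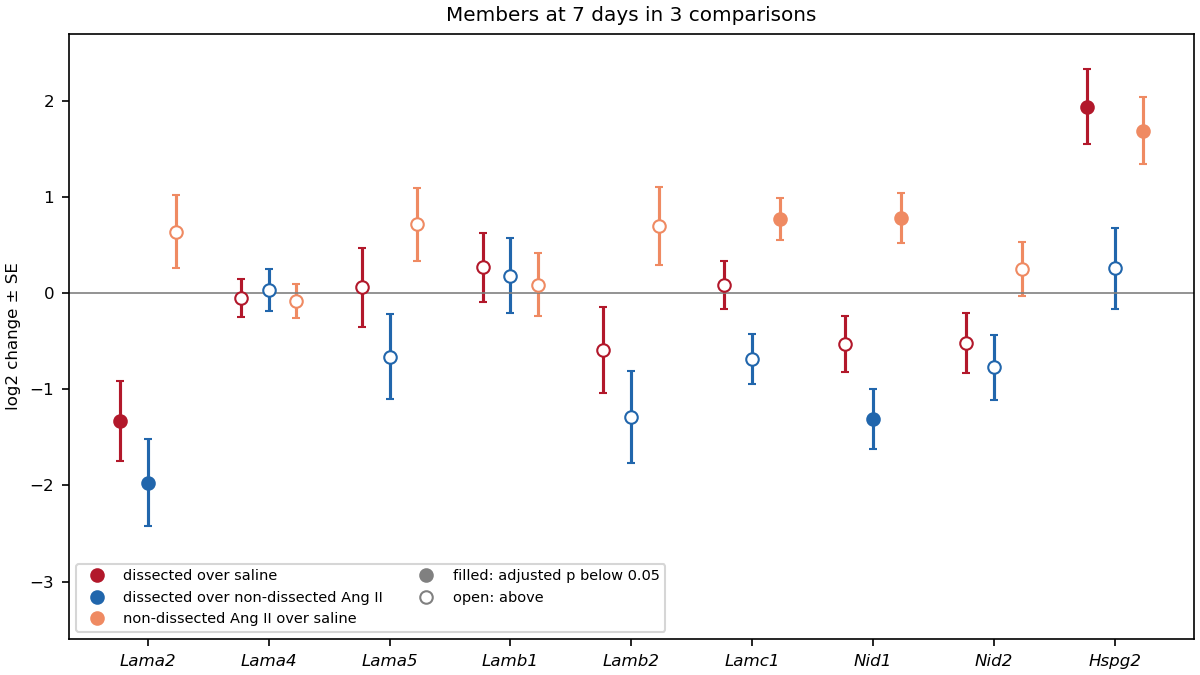
Log2 change with SE (vertical axis) of the 9 genes at 7 days, for dissected over saline, dissected over non-dissected Ang II and non-dissected Ang II over saline aortas; filled points are called. Hspg2 is filled at 1.94 and 1.69 over saline, and Lama2 is filled on the negative side in both comparisons of the dissected aortas.

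Within each scan day the 7-day changes had the same sign for the 3 called genes and their adjusted p lay above 0.05. Hspg2 had a change of 1.12 (SE 0.36, adjusted p = 0.0556) on day 1, with 3 Ang II and 3 saline aortas. On day 2 it was 2.19 (SE 0.56, adjusted p = 0.0648), where 1 non-dissected Ang II aorta was set against 3 saline aortas and was taken to vary like the other groups. Lamc1 was 0.56 (adjusted p = 0.0971) on day 1 and 0.91 (adjusted p = 0.0676) on day 2, and Nid1 was 0.61 (adjusted p = 0.0937) and 0.85 (adjusted p = 0.0917). Dissected against saline within day 2, 3 against 3 aortas, gave 2.54 for Hspg2 (adjusted p = 0.000304) and -1.12 for Lama2 (adjusted p = 0.0158).

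At 14 days none of the 9 genes was called by limma in Ang II against saline aortas, where 2.3% of all genes were, and none had an unadjusted p under 0.05, as 17.5% of all genes did. The changes ran from -0.41 for Lamb1 to 0.47 for Hspg2, with a median of 0.16 against 0.00 over all genes. At 28 days again none was called, where 1.15% of all genes were, and none had an unadjusted p under 0.05, as 14.9% of all genes did. The changes ran from -0.58 for Lama2 (SE 0.36, adjusted p = 0.472) to 0.34 for Nid2 (SE 0.27, adjusted p = 0.587), with a median of -0.11 against 0.00.

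The Ang II aortas at 28 days split by scan day. Lama2 was at 2.21, 1.97 and 2.79 in the 3 Ang II aortas of day 1, against 1.17 and 1.32 in the saline aortas of that day. On day 2 it was at 0.51, 0.08 and 0.84 in Ang II aortas, against 1.92, 2.69 and 2.80 in saline aortas. Ang II aortas were thus all higher than saline on day 1 and all lower on day 2, with changes of 1.08 (adjusted p = 0.0919) and -1.99 (adjusted p = 0.00329). Nid1 had changes of 0.92 (adjusted p = 0.106) on day 1 and -1.03 (adjusted p = 0.00329) on day 2, and Lamc1 of 0.71 (adjusted p = 0.157) and -0.65 (adjusted p = 0.0205). Lamb2 had 0.85 (adjusted p = 0.321) and -1.37 (adjusted p = 0.0263). The 28-day means over both days are averages of these opposed values, and the difference between scan days was not tested.

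The effect of Ang II on Hspg2 differed from that at 7 days by -1.22 (SE 0.48, adjusted p = 0.151) at 14 days and by -1.65 (SE 0.48, adjusted p = 0.0966) at 28 days, with 95% intervals of -2.21 to -0.23 and -2.64 to -0.66. No member was called by limma in the tests of a change of effect with time, where 1.08% of all genes were called for 14 against 7 days, 0.846% for 28 against 7 days and 0% for 28 against 14 days. At an unadjusted p under 0.05 there were 1 member (Hspg2), 4 members (Hspg2, Lama2, Lamc1 and Nid1) and 0 members, where 20.9%, 14.4% and 4.72% of all genes passed. Without saline aorta 3 of day 7 or saline aorta 2 of day 28 the 28-day difference for Hspg2 was called, at -1.87 (adjusted p = 0.0386) and -1.86 (adjusted p = 0.0283). Among saline aortas over time no member and 0% of all genes were called by limma, and no member and 2.03% of all genes had an unadjusted p under 0.05.

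**Figure D3:**
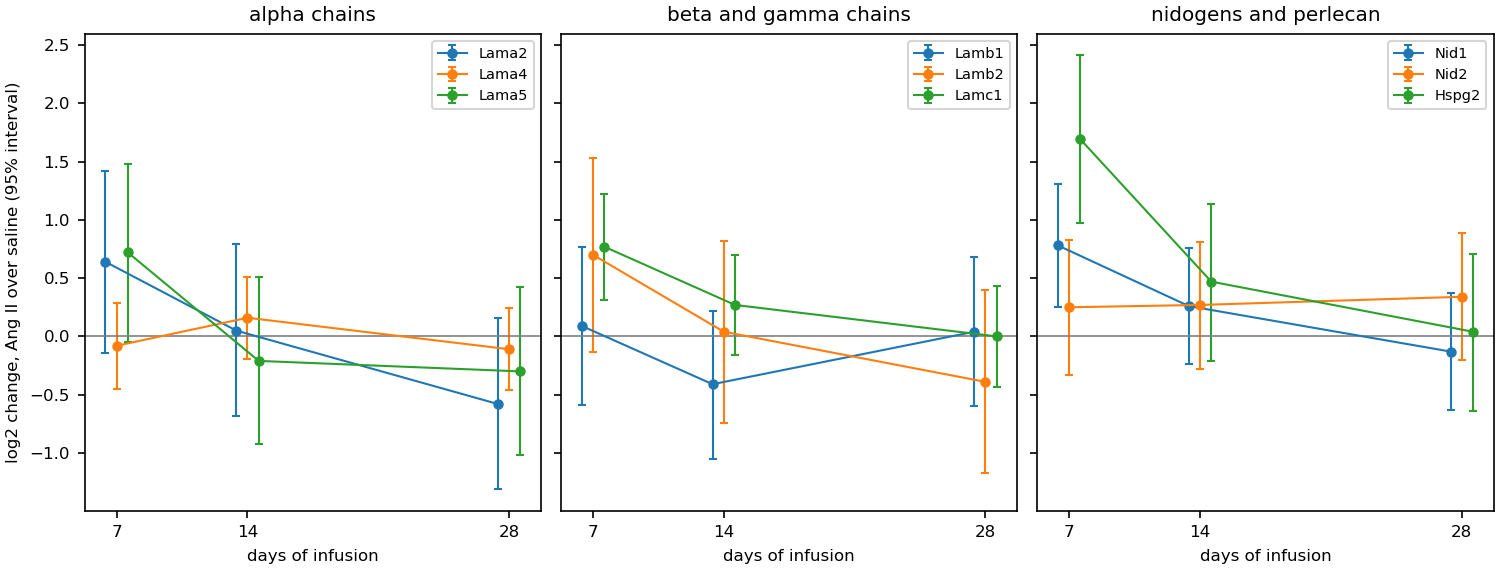
Log2 change of Ang II over saline with its 95% interval (vertical axis) against days of infusion (horizontal axis, 7, 14 and 28), for alpha chains, beta and gamma chains, and nidogens with perlecan. Intervals of Hspg2, Lamc1 and Nid1 lie above 0 at 7 days, and every interval at 14 and 28 days includes 0.

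Type IV collagen, the other network of the basement membrane, was read beside the members. For this and the lists that follow, 28.7% of all genes were called in non-dissected Ang II against saline aortas at 7 days. The share was 38% in dissected against saline and 7.54% in dissected against non-dissected Ang II aortas. Col4a1 rose by 1.19 (SE 0.23, adjusted p = 0.000355) in non-dissected Ang II against saline aortas at 7 days, and Col4a2 changed by 0.53 (SE 0.29, adjusted p = 0.167). In dissected against non-dissected Ang II aortas both were lower, by -1.61 (SE 0.27, adjusted p = 0.000534) for Col4a1 and by -1.28 (SE 0.34, adjusted p = 0.0172) for Col4a2. Of 20 other basement membrane components tested, 7 were called higher and 1 lower at 7 days, led by Sparc, a collagen-binding matricellular protein (1.78), Col15a1 (1.23) and Col4a1, with Tinag, the tubulointerstitial nephritis antigen, at -1.94 (well above background on 2 of the 4 Ang II arrays). In dissected against non-dissected Ang II aortas 3 of the 20 were called, all lower: Col4a1, Col4a2 and Pxdn, the peroxidase that cross-links collagen IV (-0.94). Against saline the dissected aortas had 5 called, all lower, among them Tinag (-2.0), Egflam (-0.66) and Pxdn (-0.55). The medians of the list were 0.50, -0.81 and -0.53 in these comparisons.

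A list of 21 tested genes held receptors of laminin and perlecan and proteins associated with these receptors. At 7 days of Ang II without dissection 1 was called higher, the heparan sulfate proteoglycan Sdc1 (1.51). The 2 called lower were the dystrophin-family genes Dmd (-1.74) and Utrn (-0.86), which are not themselves receptors. In dissected against saline aortas 19% of all genes were called lower and 19.1% higher. Of the list 13 were called lower and 1 higher there, with Sdc1 at 1.08 and a list median of -0.86. Of these Dmd was not well above background on any dissected array and was at least 6.64-fold lower there than in saline aortas (adjusted p = 2.27e-05), and the integrin chains Itga8 and Itga1 were at -1.84 and -1.57. Integrin beta1 (Itgb1) was lower by -1.15 (SE 0.36, adjusted p = 0.013) against saline and by -1.37 (SE 0.39, adjusted p = 0.0275) against non-dissected Ang II aortas. Dystroglycan (Dag1), the alpha-chain receptor that joins laminin to dystrophin, was lower by -0.60 (SE 0.17, adjusted p = 0.00485) and -0.57 (SE 0.18, adjusted p = 0.0484). The third receptor called in dissected against non-dissected Ang II aortas was Sdc2 (-1.14). In non-dissected Ang II against saline Itgb1 was at 0.23 (adjusted p = 0.648) and Dag1 at -0.04 (adjusted p = 0.892).

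Of 14 genes of heparan sulfate synthesis and editing, which act on perlecan's side chains among others, 6 were called higher and none lower at 7 days of Ang II. Ext1 and Ext2, the polymerases of the chain, were at 1.11 and 0.91, and Sulf2, which removes sulfate, at 0.85. Dissected aortas also had 6 called higher against saline, led by Xylt2 (1.04), the heparanase Hpse (1.01, above background on 1 of 6 saline arrays) and Ndst1 (0.87), and 1 called lower against non-dissected Ang II aortas, Ext1 (-1.17). Of 11 proteases that cut basement membrane 7 were called higher and none lower at 7 days of Ang II, led by the membrane-anchored Mmp14 (3.19), cathepsin S (Ctss, 2.77) and Bmp1 (2.01), with a median of 1.33. Dissected aortas had Mmp14 at 3.63, Ctss at 3.15 and Mmp9, a type IV collagenase, at 2.35 against saline. Against non-dissected Ang II aortas Mmp9 was at 2.05 (adjusted p = 0.00329) and Ctsb at 1.00 (adjusted p = 0.0181). Proteases were the only one of these 5 lists with calls at 14 days (Mmp14 1.70, Mmp2 1.60 and Bmp1 1.46) and at 28 days (Ctss 2.47, Mmp14 1.27 and Ctsb 0.90). Among 6 other laminin chains and netrins 5 were not well above background on any dissected array. Of those Ntn1, a netrin, was at least 2.21-fold lower in dissected than in saline aortas (adjusted p = 0.0326). Against non-dissected Ang II aortas it was at least 3.16-fold lower (adjusted p = 0.0351). Lama3 and Lamc3 were also called lower against saline, with no size given for them. Lama3 was well above background on 2 of 6 saline arrays at 7 days and Lamc3 on 0 of 6. The Lamc3 call thus compares signals near background in both groups and does not show a loss in dissected aortas.

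**Figure D4:**
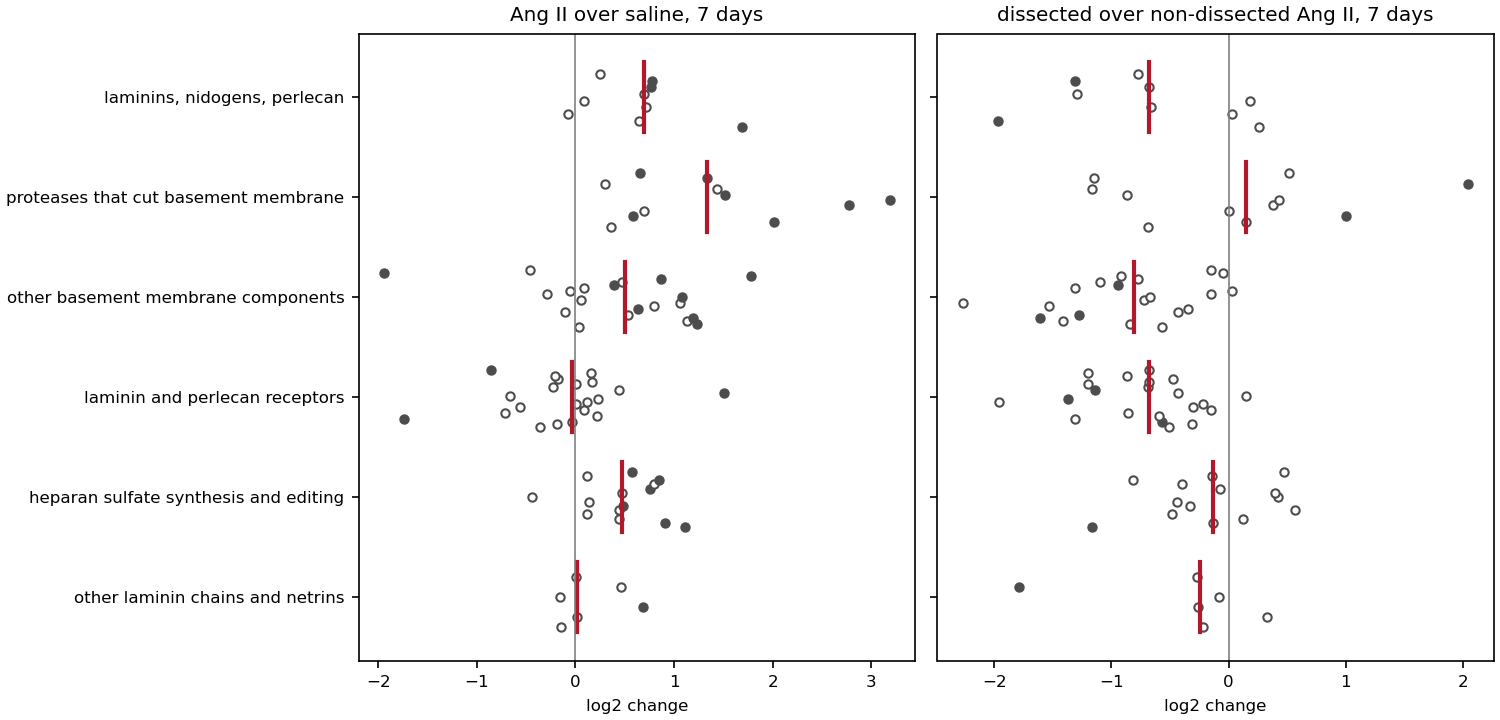
Log2 change (horizontal axis) of each tested gene of 6 lists, in Ang II over saline (left) and in dissected over non-dissected Ang II aortas (right) at 7 days; filled points are called and red bars are list medians. The median of the laminins, nidogens and perlecan lies at 0.70 on the left and at -0.68 on the right, and proteases lie highest on the left.

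Markers of several cell types also differed between these groups. In non-dissected Ang II against saline aortas at 7 days, 13 of 14 monocyte and macrophage markers and 8 of 12 fibroblast and adventitia markers were called higher, and none lower, with mean list levels of 2.35 to 2.98 and 2.44 to 2.73 in Ang II aortas against 0.37 to 0.95 and 0.96 to 1.96 in saline aortas. Of 12 chromaffin and sympathetic markers 8 were called lower, with mean levels of 0.00 to 2.19 against 0.77 to 4.20. Of 12 Schwann cell and myelin markers 6 were called lower (median change -0.68), of 12 white and common adipocyte markers 3 (median -0.56) and of 10 brown adipocyte markers 4 (median -1.03), and of 9 kidney tubule markers 1 was called higher, with a median of -0.05. Adrenal cortex markers (6 tested) had a median change of -0.05 and skeletal muscle markers (10 tested) one of 0.18, with none called by limma. Of 12 contractile smooth muscle markers 1 was called higher and 1 lower, with a median change of 0.02. Of 14 endothelial markers 1 was called lower and none higher, with a median of -0.22. With the mean levels of the brown adipocyte, kidney tubule and chromaffin lists as covariates none of the 9 genes was called at 7 days by limma, and Hspg2 was at 0.78 (adjusted p = 0.278), Lamc1 at 0.21 (adjusted p = 0.695) and Nid1 at 0.03 (adjusted p = 0.967). In that fit 616 of all genes were called, against 5362 without the covariates.

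In dissected against non-dissected Ang II aortas no contractile smooth muscle marker of 12 was called, and their median change was -0.96, with mean levels of 1.51 to 2.20 against 2.51 to 3.24. Against saline 4 of the 12 were called lower, with saline at 2.05 to 3.61. Fibroblast and adventitia markers had 3 of 12 called lower against non-dissected Ang II aortas, at 1.46 to 2.00 in dissected aortas. Against saline 2 of the 12 were called higher and none lower, with a median change of 0.36. Against non-dissected Ang II aortas 1 of 14 endothelial markers was called, higher, with mean levels of 4.21 to 4.39 against 3.62 to 4.28. In dissected against saline aortas 2 endothelial markers were called higher and 2 lower. All 12 chromaffin and sympathetic markers were above 0 in dissected against non-dissected aortas, with a median change of 1.98 and 1 called higher, and mean levels of 1.74 to 3.87 in dissected against 0.00 to 2.19 in non-dissected aortas. Of the 14 monocyte and macrophage markers all were called higher in dissected than in saline aortas, with a median of 2.14 and mean levels of 2.68 to 3.52 against 0.37 to 0.95. Against non-dissected aortas none of them was called by limma, with a median of 0.43. In dissected against saline aortas 3 Schwann cell, 2 white and 2 brown adipocyte markers were called lower. All 14 endothelial and 11 of 12 smooth muscle markers were above background on every array. The part of these cell types in the changes of the 9 genes was not tested.

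After each group mean was subtracted, Pearson's r over the 35 arrays was 0.82 between Lama2 and Nid1, 0.80 between Lama2 and Lamc1 and 0.79 between Lamc1 and Nid1. Hspg2, Lama5 and Lamb2 had r of 0.87 between Hspg2 and Lama5, 0.86 between Lama5 and Lamb2 and 0.85 between Hspg2 and Lamb2. The 9 pairs between these trios had r of 0.36 (Hspg2 and Lama2) to 0.69 (Lama5 and Lamc1). Lamb1 had values below 0 with 7 of the other members, the lowest -0.64 with Lamb2. Lama4 had no value above 0.35. These are descriptions over arrays that share the reference RNA, the labelling and the scan days, and carry no test.

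**Figure D5:**
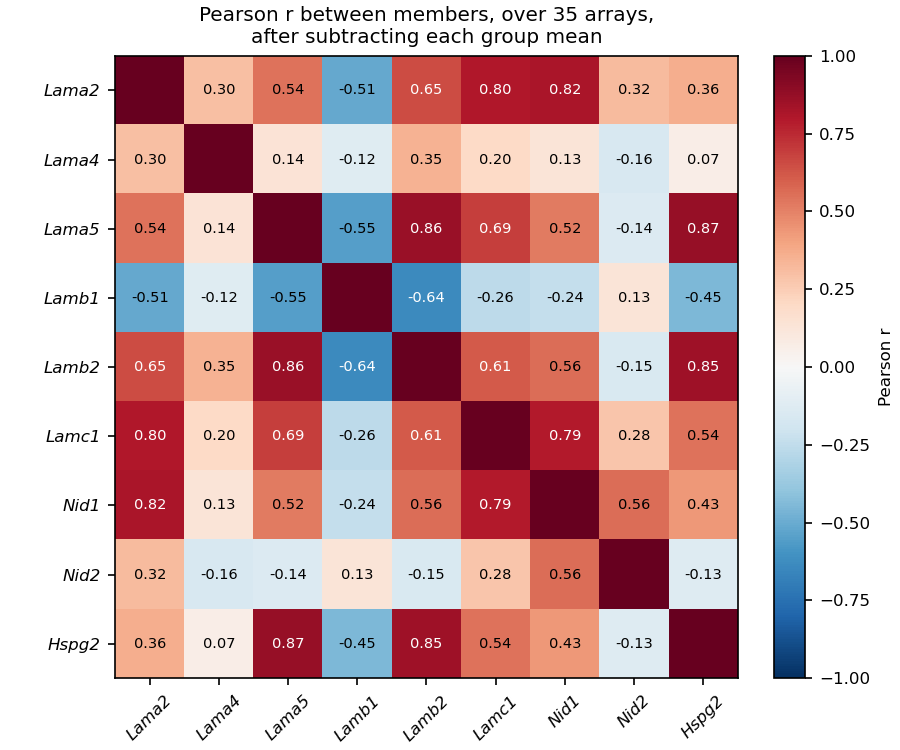
Pearson's r between each pair of the 9 genes over 35 arrays after subtraction of group means, from -1 (blue) to 1 (red). Values among Lama2, Lamc1 and Nid1 are 0.79 to 0.82, those among Hspg2, Lama5 and Lamb2 0.85 to 0.87, and those between these trios 0.36 to 0.69.

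Among all other genes tested, those whose ratios followed a member most closely over the 35 arrays, group differences included, were listed for each member. For Lama2 they were Chrdl1, a secreted BMP antagonist (r = 0.90), and Reck, a membrane-anchored protease inhibitor (0.88), and for Nid1 Chrdl1 (0.89) and the Wnt receptor Fzd1 (0.85). For Lamc1 they were Emp1 (0.89) and the type VI collagen chain Col6a1 (0.88). For Hspg2 they were Elovl1, a fatty acid elongase (0.93), and Fkbp10, a collagen chaperone (0.92). For Lama5 they were Smarcd3 and the pericyte proteoglycan Cspg4 (0.94 each), and for Lamb2 Kazald1 (0.94) and Kank2 (0.93). Lamb1 was followed by Ube4b (0.84), Nid2 by Gnb2 (0.66) and Exoc4 (0.65), and Lama4 by Thap11 and Opa3 (0.58 each).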

How the data were processed

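The deposited scanner files give, for Cy5 and Cy3, the intensity of every spot with the background around it. The submitters' processing notes name Agilent Feature Extraction 9.5.3.1. Its log10 ratio column, per the file headers, was not used. The deposited series table of log2 ratios, whose further normalization is not given in the sources used here, was an alternative. Groups came from the labels. In R 4.3.3 with limma 3.58.1, mean signals were corrected for local median background by normexp (offset 50), and log2 ratios were normalized by loess within arrays, with control spots and spots the software marked given no weight. Spots whose background exceeded their signal by more than 50 were left out of the background fit and the values: 55 spots on 11 arrays. This was chosen after seeing the data, since with them 3 arrays had collapsed log ratios (spread as low as 0.06, against at least 0.33 without them). The fit on all spots is an alternative.

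Spots of a probe were averaged, probes well above background in the aorta channel on at least 3 arrays were kept, and the brightest probe stood for each of 18671 genes. One model with 7 group means was fitted to 35 arrays (28 residual degrees of freedom), with Benjamini-Hochberg adjustment over all genes in each comparison. P-values reflect the spread among these aortas only. The fitting was tested on simulated data. The number of arrays limits the precision.

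Members and gene lists were chosen with earlier results of these data known. Named genes were the 9 members, up to 3 highest and 3 lowest called genes of each basement membrane list, Col4a1, Col4a2, Itgb1 and Dag1, and the 2 genes most correlated with each member. A few genes that this rule names and 1 Lama4 probe are not reported here. Marker lists were contractile smooth muscle, endothelium, fibroblasts and adventitia, monocytes and macrophages, brown, white and common adipocytes, skeletal muscle, kidney tubule, adrenal cortex, chromaffin cells with sympathetic neurons, and Schwann cells. Motifs were searched in RefSeq promoter windows. The alternatives tried are given in the closing section.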

Additional observations from a re-analysis of the deposited data

Results flagged for a closer look

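Each member was checked in each group of 4 to 10 aortas for a single aorta far from the others, by Dixon's criterion at 95%, and 3 of 54 groups met it, where chance gives about 1 in 20. In Ang II aortas at 14 days, Lama2 was at 2.60 in aorta 1, with the nearest of the other 4 at 1.68. In the same group Lamb2 was at 0.33 in aorta 5, with the nearest at 1.25. In saline aortas at 14 days, Lamc1 was at 0.37 in aorta 2, with the nearest of the other 5 at -0.12. No member was called in any comparison that uses these groups.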

How the results depend on the processing

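The 7 calls on members at 7 days kept their direction under each of the alternatives tried. Hspg2 in dissected against saline aortas kept its call under all 17, from 1.5 to 2.54. Median centring in place of loess called 1 member in Ang II against saline at 7 days (Lamc1 0.72, adjusted p = 0.125, and Nid1 0.73, adjusted p = 0.144, were lost), 5 in dissected against saline and 6 in dissected against non-dissected aortas. It took the median of all genes to -0.30 in both comparisons of dissected aortas (-0.05 against saline and 0.00 against non-dissected by loess) and to -0.13 at 14 days (0.00 by loess), and the genes called higher were 1773 of 2673, 1182 of 6568, 88 of 2938 and 44 of 159 (14 days), against 2759 of 5362, 3563 of 7103, 520 of 1408 and 197 of 430 by loess, and 187 of 188 against 180 of 215 at 28 days. Fits on the compared groups alone called 5 members in dissected against non-dissected aortas, and array weights called 6 at 7 days, 5 in dissected against non-dissected aortas and 1 (Hspg2) in each test of a later effect against 7 days. The slide as a block called 1 in dissected against saline and 0 in dissected against non-dissected aortas. Within scan day 1 and within scan day 2, 0 were called at 7 days, and within day 2, 0 in dissected against non-dissected aortas, 4 at 28 days (Lamc1 reversed, -0.65), 3 for the effect at 28 against 7 days and 1 in saline over time (Nid1). With neighbouring tissue covariates 0 were called at 7 days and 4 in dissected against saline. Leaving out each array in turn gave 1 to 4 members at 7 days, 1 to 2 in both comparisons of dissected aortas and 0 to 1 for the effect at 28 against 7 days. In the comparisons between groups, the counts of all genes called that moved by over 1.5 times were, at 7 days, 8993 with array weights and 3527 with the slide as a block; in dissected against saline aortas, 4573 with the slide; in dissected against non-dissected aortas, 2319 on those groups alone, 4340 with weights, 313 with the slide, 895 with the scan day as a block and 2815 in the deposited table. At 14 days they were 202 with plain subtraction, 216 with scaling, 126 on those groups alone, 999 with weights and 166 with covariates, and at 28 days 427 in the deposited table, 1 on those groups alone, 123 with weights, 725 with the slide and 82 with covariates. Within scan days they were 2816 and 314 at 7 days, 67 and 1 at 14 days, 43 and 2571 at 28 days, 8 in dissected against non-dissected aortas and, on day 2, 117 in saline over time (0 over both days). At 14 days the deposited table had 184 of 580 higher. For the effect at 14 against 7 days (202 genes) they were 502 by median centring, 109 with scaling, 874 in the deposited table, 93 without the dim probe filter, 1033 on those groups alone, 3715 with weights, 353 with the replicate block, 29 with the slide, 91 with the scan day, 1 and 0 within scan days and 0 with covariates. At 28 against 7 days (158) they were 494 with all spots, 78 with plain subtraction, 80 by median centring, 103 without the dim probe filter, 37 on those groups alone, 1093 with weights, 52 with the replicate block, 35 with the slide, 0 and 430 within scan days and 7 with covariates. The fit on all spots, chosen after seeing the data as the alternative, called the same numbers of members (3, 0, 0, 2 and 2) and 94 genes in saline over time, against 0. The replicate block called 3 members in dissected against non-dissected aortas (Lamc1 added, -0.77), and same-numbered aortas of different groups shared only a number, with a mean correlation of deviations of 0.08 over 91 pairs. The cause of these changes was not tested. Signal near background limits the further probe of Lama2, whose fold in dissected aortas is a bound.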
